A study of Mus musculus with 6 samples.

Results

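The genes described are 3 metallothioneins, Mt1, Mt2 and Mt3, the zinc-sensing transcription factor gene Mtf1, and Slc30a1, which encodes the zinc exporter ZnT1. They were taken by symbol from the deposited expression table, where 5 of 56826 rows, and of 23473 rows that carry a gene symbol, were these genes. Total RNA of mouse brain, depleted of ribosomal RNA, was sequenced as read pairs in 3 libraries after ischemia and reperfusion (I1h/R6h) and 3 libraries after a sham operation. Both groups were adult male C57BL/6 mice of 8 to 9 weeks, anesthetized with chloral hydrate at 350 mg/kg and kept at 37 °C during surgery. In the I1h/R6h group a coated filament closed the middle cerebral artery for 60 min, that is 1 h of ischemia, and its withdrawal was followed by 6 h of reperfusion. Sham mice had the same surgery with no filament. The labels give the tissue as brain, without naming a hemisphere or region, and do not say that each library came from its own animal. The p-values therefore measure the spread between these libraries, which may be technical.

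Metallothioneins are small cysteine-rich proteins that hold zinc and copper through their thiol groups and release the metal when those thiols are oxidized. In brain, Mt1 and Mt2 are expressed mainly by astrocytes and are known to be inducible by zinc, glucocorticoids, cytokines and oxidative stress. Mt3 is a brain-enriched form found in neurons that store synaptic zinc and in astrocytes, and is not readily induced by metals. When free zinc rises in the cell, the protein made from Mtf1 binds metal response elements and drives Mt1, Mt2 and Slc30a1, so that zinc is bound or pumped out across the plasma membrane.

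The genes Mt4, Mt3, Mt2 and Mt1 lie in this order on the plus strand of chromosome 8 in the mm10 build. Mt3 spans 94152607 to 94154148, Mt2 94172618 to 94173567 and Mt1 94179089 to 94180327, with 18469 bases between Mt3 and Mt2 and 5521 bases between Mt2 and Mt1. No other gene-symbol row lies between Mt4 and Mt1. Mtf1 lies on chromosome 4 from 124802549 to 124849800 and Slc30a1 on chromosome 1 from 191906781 to 191913247, both on the plus strand. The promoter windows of 4 of these genes are printed because Mt1 and Mt2 moved together across the libraries, Slc30a1 did so in part and Mt3 did not. Whether the windows have a part in this was not tested. Each window runs from 250 bases before the annotated start to 50 bases after it (RefSeq, GRCm38.p6, plus strand), and the start equals that of the deposited row. Capitals mark the core of the metal response element, searched as TGCACNC and TGCGCNC on both strands.
Mt1, chr8:94178839-94179138: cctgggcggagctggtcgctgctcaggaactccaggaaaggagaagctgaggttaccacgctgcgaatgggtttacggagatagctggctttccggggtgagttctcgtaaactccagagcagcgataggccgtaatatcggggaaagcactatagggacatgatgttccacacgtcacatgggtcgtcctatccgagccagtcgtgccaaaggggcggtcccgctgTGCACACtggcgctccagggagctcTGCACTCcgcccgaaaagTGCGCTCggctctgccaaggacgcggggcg
Mt2, chr8:94172368-94172667: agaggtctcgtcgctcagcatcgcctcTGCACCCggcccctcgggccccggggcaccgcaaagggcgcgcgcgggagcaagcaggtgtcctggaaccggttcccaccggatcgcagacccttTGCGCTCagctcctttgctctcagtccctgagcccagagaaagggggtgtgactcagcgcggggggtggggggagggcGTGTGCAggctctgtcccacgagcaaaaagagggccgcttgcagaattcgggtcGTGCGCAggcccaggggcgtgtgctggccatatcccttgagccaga
Mt3, chr8:94152357-94152656: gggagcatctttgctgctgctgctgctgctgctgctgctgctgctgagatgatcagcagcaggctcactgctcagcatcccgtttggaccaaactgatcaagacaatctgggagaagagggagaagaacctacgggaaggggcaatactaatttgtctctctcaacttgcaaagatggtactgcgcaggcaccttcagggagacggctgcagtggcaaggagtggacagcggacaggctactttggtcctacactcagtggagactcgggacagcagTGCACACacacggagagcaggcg
Slc30a1, chr1:191906531-191906830: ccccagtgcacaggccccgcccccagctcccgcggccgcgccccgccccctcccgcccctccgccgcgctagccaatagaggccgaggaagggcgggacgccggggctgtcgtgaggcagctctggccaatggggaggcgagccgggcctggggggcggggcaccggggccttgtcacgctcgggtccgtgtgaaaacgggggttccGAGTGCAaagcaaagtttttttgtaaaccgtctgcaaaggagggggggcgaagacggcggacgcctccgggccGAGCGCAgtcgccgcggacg

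The Mt2 window held 4 core matches, the Mt1 window 3, the Slc30a1 window 2 and the Mt3 window 1, while the Mtf1 window held 0. Of 32851 promoter windows of the same length, 25.7% held at least 1 match, 7.11% at least 2, 1.97% at least 3 and 0.517% at least 4. In Mt1 all matches were on the gene's own strand, between positions −23 and 26, the annotated start being position 0. In Mt2 they began at positions −223, −128, −50 and 4, the last pair on the other strand. The windows are rich in G and C, at 60.7% for Mt1, 67.7% for Mt2, 56% for Mt3 and 73% for Slc30a1, against a median of 52.7% over all windows. The antioxidant response element core TGACNNNGC matched once in Mt2 and once in Slc30a1 and is present in 12.4% of all windows. The E-box CACGTG (7.15% of windows), the STAT site TTCNNNGAA (8.3%) and the palindromic glucocorticoid response element (0.00913%) had 0 matches in these windows on either strand. A match is a description of the letters and not a bound site. The Mt1 window ends at 94179138, while 2 clone rows inside Mt1 begin at 94179241 and 94179244 and held 96.9% to 98.3% of its counts. Most Mt1 reads thus lay beyond this window. The bases just before those clone starts were not searched, so the matches, or the lack of them, hold for the annotated start only.

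**Figure D1:**
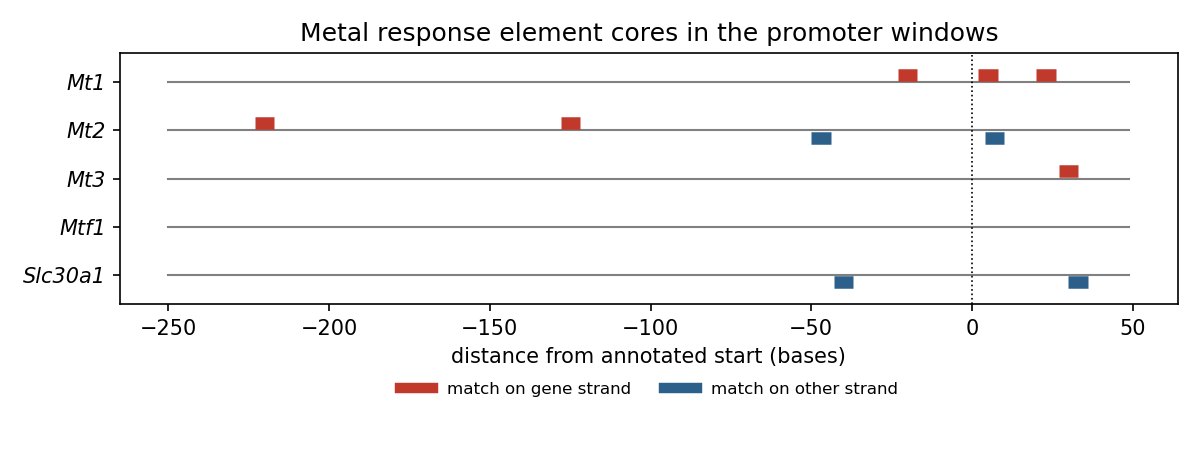
Matches to the metal response element core (bars) in the promoter windows of the 5 genes, by distance in bases from the annotated start (dotted line). Bars above a line are on the gene's strand and bars below it on the other strand. Mt2 has 4 matches, Mt1 3, Slc30a1 2, Mt3 1 and Mtf1 0.

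The deposited counts summed to 45425867 to 49686109 per library, and each of the 5 genes had at least 1831 counts in every library. Levels are given as RPKM, which divides a row's count by its length in kilobases and by the library total in units of 1000000, so that genes can be compared. Summed neuron markers (8 genes) stood at 1495 to 1779 RPKM in I1h/R6h and 1631 to 1701 RPKM in sham, and summed astrocyte markers (10 genes) at 1308 to 1507 RPKM and 1537 to 1668 RPKM, with no marker of either list at 0. Choroid plexus and ependymal markers (8 genes) summed to 333, 11.7 and 962 RPKM in I1h/R6h replicates 1, 2 and 3, and to 437 to 604 RPKM in sham. Markers of hypothalamus and thalamus (8 genes) summed to 197, 37.6 and 171 RPKM in I1h/R6h replicates 1, 2 and 3, and to 51, 33 and 137 RPKM in sham replicates 1, 2 and 3. Oligodendrocyte markers (7 genes) summed to 999, 1238 and 2749 RPKM in I1h/R6h and to 1178 to 1547 RPKM in sham. The libraries thus held unequal amounts of the RNA of these cells and regions within a group, and the part of this in the values below was not tested.

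In both groups the order of levels per length was Mt1, Mt2, Mt3, Slc30a1 and Mtf1. By its mean RPKM over the 6 libraries Mt1 ranked 43 among the gene-symbol rows, Mt2 96, Mt3 183, Slc30a1 4668 and Mtf1 8318. Mt1 exceeded Mt2 and Slc30a1 exceeded Mtf1 in each of the 6 libraries. Mt2 and Mt3 did not keep their order: Mt2 stood at 163 RPKM and Mt3 at 195 RPKM in I1h/R6h replicate 2, and Mt2 was above Mt3 in the other 5 libraries. Summed, the 3 metallothioneins came to 1398, 687 and 972 RPKM in I1h/R6h and 981, 1272 and 951 RPKM in sham, for replicates 1, 2 and 3.

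**Figure D2:**
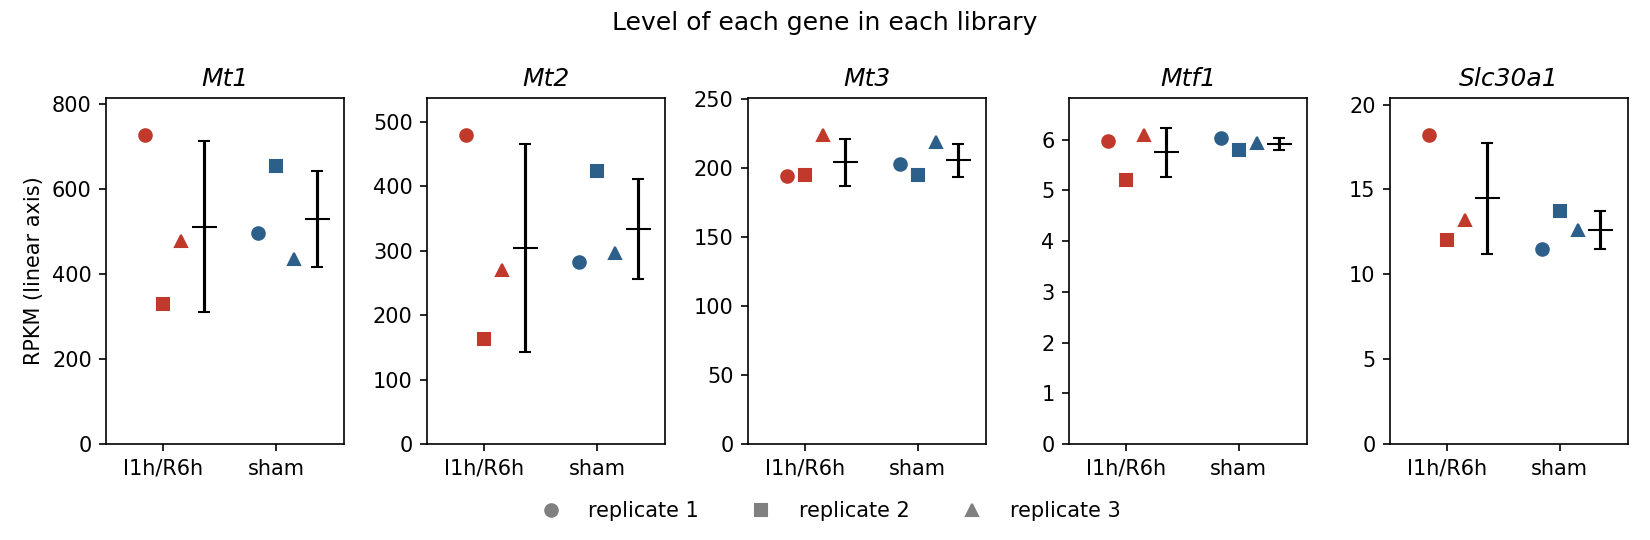
Level in RPKM (linear axes from 0) of each gene in the I1h/R6h (red, left) and sham (blue, right) libraries. Symbols mark the replicate number, and black bars the mean ± SD of 3 libraries. The groups overlap for all 5 genes, and Mt1 and Mt2 have the widest spread, from 329 to 726 RPKM and from 163 to 479 RPKM in I1h/R6h.

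Ischemia and reperfusion were not accompanied by a change past the test in any of these genes. With edgeR's quasi-likelihood test over all 40170 rows tested, 0 of 5 passed an adjusted p of 0.05, against 0.00249% of all rows (1 row, higher). At an unadjusted p under 0.05 there were 0 of 5, against 15.6% of all rows (8.73% higher and 6.9% lower), and DESeq2 and limma-voom also called 0 of 5, DESeq2 against 1.7% of the rows it adjusted. The groups overlapped in each of the 5 genes, whereas the groups were apart in 20.9% of all rows (14% higher and 6.99% lower) and in 19.1% of the gene-symbol rows (10.3% higher and 8.79% lower). A p that misses the threshold does not show that the groups are alike, and the intervals below give the sizes of change that remain possible. In bulk tissue a smaller number of cells of a type and less RNA per cell cannot be told apart.

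Mt1, the most abundant of the metallothioneins, had 726, 329 and 477 RPKM in I1h/R6h replicates 1, 2 and 3, against 495, 654 and 436 RPKM in sham replicates 1, 2 and 3. The highest and the lowest of all 6 values were both I1h/R6h libraries, and the sham values lay between them. The means were 511 ± 200.3 RPKM in I1h/R6h and 528 ± 113 RPKM in sham (SD, n = 3 each). The log2 fold change was −0.11 ± 0.31 (SE), with a 95% interval from −0.88 to 0.66, which corresponds to 0.544 to 1.58 times the sham level (edgeR adjusted p = 0.890). Its direction depended on single libraries: without I1h/R6h replicate 2 it was 0.11 (edgeR adjusted p = 0.862), without sham replicate 2 it was 0.08 (0.938), and without I1h/R6h replicate 1 it was −0.46 (0.287).

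Mt2, its close neighbour with the same metal-binding role, followed the same order of extremes. It had 479, 163 and 270.4 RPKM in I1h/R6h replicates 1, 2 and 3, against 283, 423 and 296 RPKM in sham. The range within I1h/R6h was 2.94 times from lowest to highest and that within sham 1.5 times. The means were 304 ± 160.4 RPKM in I1h/R6h and 334 ± 77.6 RPKM in sham (SD, n = 3 each). On the log2 scale the difference was −0.20 ± 0.43 (SE), its interval ran from −1.32 to 0.92, and the adjusted p was 0.859 (edgeR). In fold terms this interval runs from 0.402 to 1.89 times the sham level, so the data leave a change of either sign possible. Without I1h/R6h replicate 2 the log2 fold change was 0.09 (edgeR adjusted p = 0.918), without sham replicate 2 it was 0.02 (0.992), and without I1h/R6h replicate 1 it was −0.69 (0.269).

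**Figure D3:**
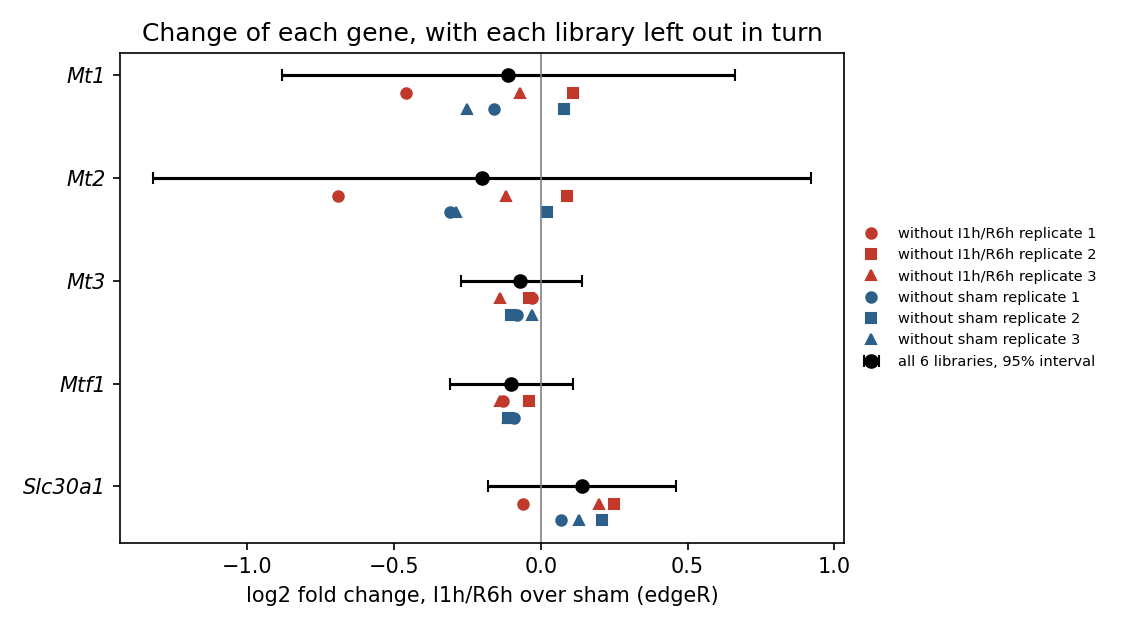
Log2 fold change of each gene, I1h/R6h over sham (edgeR), with its 95% interval over all 6 libraries (black) and the value without each I1h/R6h library (red) or each sham library (blue). All intervals include 0, and for Mt1, Mt2 and Slc30a1 the points lie on both sides of 0.

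The spread of Mt1 and Mt2 within a group was wide compared with other genes of 10 CPM or more, where CPM is a row's count in every 1000000 counts. On the log2 CPM scale the SD of Mt1 was 0.55 in I1h/R6h and 0.32 in sham, and that of Mt2 0.76 and 0.33. The median SD of 9878 such gene rows was 0.143 in I1h/R6h and 0.0948 in sham, and 97.7% and 96.9% of them had a smaller SD than Mt1. For Mt2 these shares were 99.3% and 97.5%. Mt3 and Mtf1 were steadier than most rows in both groups: 35.3% and 34.6% of rows had a smaller SD than Mt3, and 31.3% and 3.15% a smaller SD than Mtf1, in I1h/R6h and sham. Slc30a1 lay between, at 88.4% and 72.3%.

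Mt1 and Mt2 varied together over the 6 libraries, though not in every pair of them. Sham replicate 1 was above sham replicate 3 in Mt1 (495 and 436 RPKM) but below it in Mt2 (283 and 296 RPKM). Pearson's r of their log2 CPM over the 6 libraries was 0.98 and Spearman's rho 0.83, given as a description, since the points share a library and its depth. Without I1h/R6h replicates 1 and 2, the libraries farthest from the median of Mt1, r was 0.92 over 4 libraries. These still included sham replicate 2, the highest of the 4 in both genes. I1h/R6h replicate 1 was the highest and sham replicate 2 the next in both genes, and I1h/R6h replicate 2 was the lowest in both. Over all 6 libraries Slc30a1 had r = 0.78 with Mt1 and 0.77 with Mt2, Mtf1 0.60 and 0.66, and Mt3 −0.28 and −0.15. By its r Slc30a1 ranked only 718 for Mt1 and 852 for Mt2 among 9877 gene rows. Without I1h/R6h replicates 1 and 2 its r was 0.67 with Mt1 and 0.77 with Mt2. Over 9877 other gene rows the median r with Mt1 was 0.12, and 1.89% of them had an r of at least 0.9. Some marker lists moved with or against Mt1 and Mt2, and others did so little. For a list, r was taken from the mean log2 deviation of its tested markers from the sham mean, not from the sums. The 7 microglia markers, none at 0, had r = −0.88 and −0.92 with Mt1 and Mt2. Their mean deviations were −0.03, 0.54 and 0.33 in I1h/R6h and 0.02, −0.12 and 0.09 in sham. They summed to 100.1, 113 and 104 RPKM in I1h/R6h and 97.1, 95.3 and 96.4 RPKM in sham. The 6 markers of hippocampus and zinc-rich cortex, none at 0, had r = −0.93 and −0.92. Their mean deviations were −0.31, 0.22 and 0.10 in I1h/R6h and 0.04, −0.10 and 0.07 in sham. They summed to 69, 90.2 and 75.2 RPKM in I1h/R6h and 80, 69.8 and 81.4 RPKM in sham. For the astrocyte markers r was 0.62 and 0.70. For the remaining lists r with Mt1 ran from −0.46 (erythroid) to 0.55 (choroid plexus and ependyma), and r with Mt2 from −0.62 to 0.61 in the same lists. Among these were oligodendrocytes at −0.36 and −0.33, neurons at −0.30 and −0.29, and hypothalamus and thalamus at 0.19 and 0.29. The part of these cells and regions in the levels of Mt1 and Mt2 was not tested.

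**Figure D4:**
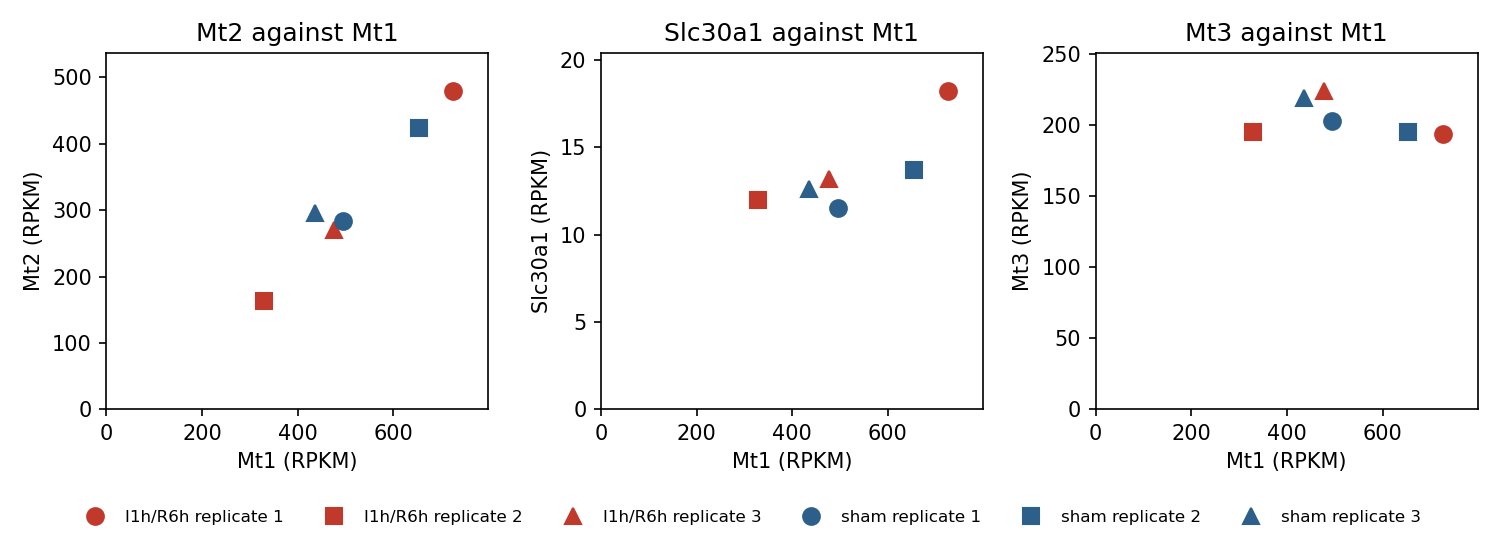
RPKM of Mt2, Slc30a1 and Mt3 against RPKM of Mt1 (axes from 0), 1 point per library, I1h/R6h in red and sham in blue. Mt2 mostly climbs with Mt1 over the libraries, Slc30a1 is highest where Mt1 is highest, and Mt3 stays between 194 and 224 RPKM.

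Within a library the ratio of Mt2 to Mt1 needs no scaling factor. It was 0.660, 0.495 and 0.567 in I1h/R6h replicates 1, 2 and 3, against 0.572, 0.647 and 0.678 in sham. The groups overlapped, with a mean log2 ratio of −0.81 ± 0.21 in I1h/R6h and −0.67 ± 0.13 in sham (SD, n = 3 each) and a difference of −0.15 (exact permutation test, two-sided, p = 0.4; 3 against 3 cannot go below 0.1). The sum of Mt1 and Mt2 was 6.21, 2.53 and 3.33 times the level of Mt3 in I1h/R6h, against 3.83, 5.54 and 3.34 times in sham. The extremes were again both in I1h/R6h, and the log2 means of 1.90 ± 0.66 and 2.05 ± 0.38 (SD, n = 3 each) differed by −0.15 (exact permutation test, two-sided, p = 0.7). That difference was 0.14 without I1h/R6h replicate 2 and 0.07 without sham replicate 2, so its sign also rested on single libraries.

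Mt3 varied little. It had 194, 195 and 224 RPKM in I1h/R6h replicates 1, 2 and 3, against 203, 195 and 219 RPKM in sham, and the values of the groups interleaved. The fitted log2 difference was −0.07 ± 0.10 (SE), and its interval ran from −0.27 to 0.14, that is 0.827 to 1.1 times the sham level (edgeR adjusted p = 0.772). This is the narrowest interval of the 3 metallothioneins, and Mt3 kept its sign without each of the 6 libraries, between −0.14 and −0.03. Mt4, the form of stratified epithelia, had 2 counts in I1h/R6h replicate 1 and 0 counts in the other 5 libraries, all under a floor of 3 counts (0.0604 to 0.0660 CPM, counting error only), and was not tested.

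Mtf1, the regulator, had 5.97, 5.20 and 6.09 RPKM in I1h/R6h, against 6.03, 5.79 and 5.94 RPKM in sham. I1h/R6h replicate 2, the library with the lowest Mt1 and Mt2, was also the lowest in Mtf1, and the other 5 libraries lay within 5.79 to 6.09 RPKM. The log2 fold change was −0.10 ± 0.10 (SE), with an interval from −0.31 to 0.11 and an adjusted p of 0.652 (edgeR). The end of Mtf1 overlaps the gene 1110065P20Rik on the other strand by 316 bases. That row had 39.6, 41.0 and 44.8 RPKM in I1h/R6h, against 51.1, 46.0 and 53.1 RPKM in sham, with a log2 fold change of −0.31 (unadjusted p = 0.00963, adjusted p = 0.211, edgeR). Its groups did not overlap. Whether the counting was strand-aware is not stated, and reads of the shared stretch may have come from either gene.

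Slc30a1, which moves zinc out of the cell, had 18.2, 12.0 and 13.2 RPKM in I1h/R6h replicates 1, 2 and 3, against 11.5, 13.7 and 12.6 RPKM in sham. I1h/R6h replicate 1 stood above the other 5 libraries, which lay within 11.5 to 13.7 RPKM, and it was also the library with the most Mt1 and Mt2. The means were 14.5 ± 3.32 RPKM in I1h/R6h and 12.6 ± 1.11 RPKM in sham (SD, n = 3 each). The fitted difference was 0.14 ± 0.14 (SE) on the log2 scale, between −0.18 and 0.46 (edgeR adjusted p = 0.668). Without I1h/R6h replicate 1 the log2 fold change was −0.06 (edgeR adjusted p = 0.782). Its first 747 bases overlap the span of 1700034H15Rik on the other strand, whose counts were 17.4% to 20.6% of those of Slc30a1 (log2 fold change 0.21, edgeR adjusted p = 0.537).

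The authors' deposited table gave other calls for the same genes. It listed Mt2 as lower (log2 change −0.14, q = 1.7e-06) and Slc30a1 as higher (0.20, q = 6.1e-08), that is 2 of 5 genes past a q of 0.05, against 24.5% of the rows in the authors' deposited table (14.7% higher and 9.77% lower). For Mt1 the authors' deposited table gave −0.05 (q = 0.124), for Mt3 −0.01 (q = 0.827) and for Mtf1 −0.04 (q = 0.586). How these q-values were computed is not stated. Its mean RPKM of 304 in I1h/R6h and 334 in sham for Mt2 stand beside library values that span 163 to 479 RPKM in I1h/R6h alone. For Slc30a1 its means are 14.5 and 12.6 RPKM, and I1h/R6h replicate 2 lay below 2 sham libraries.

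Rows of cDNA clones that overlap Mt1 and Mt2 share most of the genes' reads and are not independent of them. The clones fantom3_1810074C23 and fantom3_2510038C20 lie inside Mt1 on its strand and held 96.9% to 98.3% of its counts in each library, with a log2 fold change of −0.11 for both (edgeR adjusted p = 0.889 and 0.890). The clone fantom3_B230377K03, on the minus strand from 94170752 to 94173412, overlaps 795 bases of the span of Mt2. Its counts were 11502, 3876 and 6277 in I1h/R6h and 6902, 10178 and 7124 in sham, which is 88.3% to 92.7% of the counts of Mt2 in every library. A row annotated on the opposite strand thus carried almost the same number of reads as Mt2, and an antisense transcript cannot be told apart from Mt2 itself here.

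The flanking genes of the metallothionein cluster are given for comparison. Nup93, a nuclear pore protein gene 34273 bases beyond Mt1, had 9.33, 7.21 and 7.57 RPKM in I1h/R6h, against 5.40, 5.96 and 5.60 RPKM in sham. Its groups did not overlap, and the log2 fold change of 0.45 ± 0.12 (SE) had an unadjusted p of 0.00342 and an adjusted p of 0.174 (edgeR). Bbs2, on the other side beyond Mt4, had 6.31, 5.62 and 4.84 RPKM in I1h/R6h, against 5.08, 5.22 and 5.15 RPKM in sham (log2 fold change 0.06 ± 0.13 SE, edgeR adjusted p = 0.839).

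The wider zinc transporter families were examined as whole lists. Most Slc30 proteins move zinc out of the cytosol, into vesicles or out of the cell. All 10 members of the family had a row, of which 9 were tested. With edgeR 0 passed, 1 was lower at an unadjusted p under 0.05, against 8.71% of 16642 gene-symbol rows tested, and 0 were higher, against 6.39%. Of the 9 tested, 8 had a negative log2 fold change and Slc30a1 alone a positive one, and the median was −0.18, against −0.04 over gene-symbol rows. The member with the smallest p was Slc30a9, a transporter of mitochondria, at 44.0, 44.4 and 40.8 RPKM in I1h/R6h, against 51.3, 52.1 and 49.2 RPKM in sham. Its groups did not overlap, and the log2 fold change was −0.30 ± 0.09 (SE; unadjusted p = 0.00647, edgeR adjusted p = 0.196). Slc30a3, which loads zinc into synaptic vesicles, had 20, 24.9 and 19.8 RPKM in I1h/R6h, against 25.6, 21.0 and 28.1 RPKM in sham (log2 fold change −0.26 ± 0.13 SE, edgeR adjusted p = 0.362). Slc30a4 stood at −0.25 ± 0.13 (adjusted p = 0.365) and Slc30a5, of the secretory pathway, at −0.15 ± 0.11 (adjusted p = 0.519), with overlapping groups. Slc30a8, the transporter of insulin granules, was at 0.0436 RPKM or less in every library and was not tested.

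The Slc39 family brings zinc into the cytosol, and all 14 members were tested. With edgeR 0 passed over all rows, while an unadjusted p under 0.05 was met by 1 higher and 2 lower members, against 6.39% higher and 8.71% lower of the gene-symbol rows. The median log2 fold change was −0.06, against −0.04 over gene-symbol rows, with 6 positive and 8 negative members. Slc39a12, a zinc importer of brain, had 15.5, 12.4 and 15.2 RPKM in I1h/R6h, against 19.9, 21.8 and 19.8 RPKM in sham. Every I1h/R6h library lay below every sham library. The log2 fold change was −0.57 ± 0.11 (SE; unadjusted p = 0.000211, edgeR adjusted p = 0.129), and DESeq2 called it lower (adjusted p = 0.00318). Leaving out single libraries gave log2 fold changes between −0.64 and −0.49 and edgeR adjusted p from 0.0192 to 0.491. Slc39a12 was called lower without I1h/R6h replicate 1 (edgeR adjusted p = 0.0192), where 650 rows of the table were called higher and 407 lower. With no low-count filter it was also called lower (edgeR adjusted p = 0.0351), beside 51 rows higher and 26 lower in all. Astrocyte markers moved the same way, with 5 of 10 lower and 0 higher by unadjusted p, against 8.71% and 6.39% of gene-symbol rows, and 0 called by edgeR (median log2 fold change −0.35), and their part in the lower Slc39a12 was not tested.

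Slc39a11 was the other importer that was lower at an unadjusted p under 0.05, at 4.32, 4.90 and 4.22 RPKM in I1h/R6h, against 6.36, 5.82 and 5.63 RPKM in sham. Its groups did not overlap either, and the log2 fold change was −0.46 ± 0.12 (SE; unadjusted p = 0.00276, edgeR adjusted p = 0.167, DESeq2 adjusted p = 0.0541). Slc39a2, at a low level, had 0.706, 0.752 and 0.585 RPKM in I1h/R6h, against 0.440, 0.374 and 0.430 RPKM in sham (log2 fold change 0.66 ± 0.24 SE, unadjusted p = 0.017, edgeR adjusted p = 0.239). For Slc39a8, an importer that inflammatory signals are known to induce, all 3 I1h/R6h values were also above all sham values, at 0.711, 0.714 and 0.843 RPKM against 0.510, 0.605 and 0.596 RPKM (log2 fold change 0.35 ± 0.19 SE, edgeR adjusted p = 0.398). Slc39a14, another importer of acute phase responses, had, like Slc30a1, its highest value in I1h/R6h replicate 1 at 10.3 RPKM and the other 5 libraries at 6.79 to 8.33 RPKM.

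**Figure D5:**
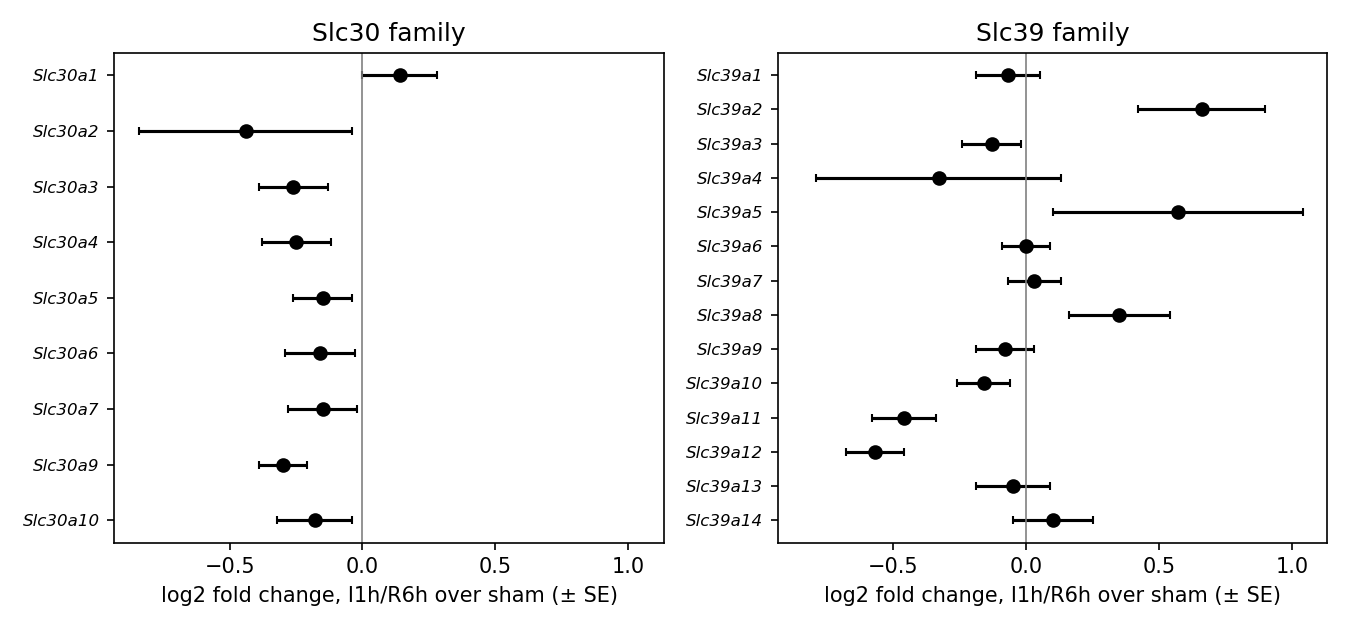
Log2 fold change ± SE, I1h/R6h over sham (edgeR), of the tested members of the Slc30 and Slc39 zinc transporter families. In the Slc30 family 8 of 9 points lie below 0 and Slc30a1 at 0.14; in the Slc39 family Slc39a12 is lowest at −0.57 and Slc39a2 highest at 0.66, and no member passed the edgeR threshold.

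Other genes reported as targets of the Mtf1 protein were mixed in sign. The list includes Slc39a10, which that protein represses. Its sign counts and median therefore do not measure the activity of the Mtf1 protein. Of 8 tested, 4 had a positive and 4 a negative log2 fold change, edgeR called 0, and 1 was lower at an unadjusted p under 0.05, against 8.71% of gene-symbol rows. That was Pgf, a growth factor of the vascular endothelial family, with 2.13, 1.43 and 1.92 RPKM in I1h/R6h, against 2.75, 2.74 and 2.75 RPKM in sham. Its groups did not overlap (log2 fold change −0.64 ± 0.18 SE, unadjusted p = 0.00394, edgeR adjusted p = 0.181), and edgeR called it lower without I1h/R6h replicate 1 (adjusted p = 0.0497). With other single libraries left out, the edgeR adjusted p of Pgf reached 0.506. Tgfb1, a cytokine, had 0.433, 0.228 and 0.578 RPKM in I1h/R6h, against 0.211, 0.179 and 0.293 RPKM in sham, with overlapping groups (log2 fold change 0.80 ± 0.39 SE, edgeR adjusted p = 0.344). Selenow, a selenoprotein gene matched by its gene ID to the row Sepw1, stood at 0.20 ± 0.14 (edgeR adjusted p = 0.514), and Slc39a10, a zinc importer that the Mtf1 protein represses, at −0.16 ± 0.10 (0.467).

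Copper handling genes showed no call either, with 2 of 9 positive. An unadjusted p under 0.05 was met by 0 of 9, against 15.1% of gene-symbol rows. The median log2 fold change was −0.12, against −0.04 over gene-symbol rows. Sod1, the copper and zinc superoxide dismutase, had the smallest p of the copper genes. It had 139, 134 and 126 RPKM in I1h/R6h, against 143, 159 and 134 RPKM in sham (log2 fold change −0.18 ± 0.10 SE, edgeR adjusted p = 0.399). Atox1, a copper chaperone, stood at −0.17 ± 0.12 (adjusted p = 0.489), Slc31a1, the copper importer, at −0.24 ± 0.18 (0.544), and its relative Slc31a2 at −0.17 ± 0.14 (0.581).

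Genes of the signals known to induce metallothioneins were read beside Mt1 and Mt2. Of 12 glucocorticoid-induced genes tested, edgeR called 0, an unadjusted p under 0.05 was met by 1 higher and 3 lower genes (6.39% and 8.71% of gene-symbol rows), and the median log2 fold change was −0.17, with 9 negative. Without sham replicate 2 that median was 0.01. Sult1a1, a sulfotransferase, had 12.0, 7.31 and 5.95 RPKM in I1h/R6h, against 16.1, 13.4 and 12.6 RPKM in sham, without overlap (log2 fold change −0.80 ± 0.24 SE, edgeR adjusted p = 0.208, DESeq2 adjusted p = 0.0258). Without I1h/R6h replicate 1 edgeR called Sult1a1 (−1.14, adjusted p = 0.00841) and Fkbp5, a chaperone gene of the glucocorticoid receptor, lower (−1.01, 0.0362). That setting called 650 rows of the table higher and 407 lower. With other single libraries left out, the edgeR adjusted p reached 0.512 for Sult1a1 and 0.696 for Fkbp5. Tsc22d3, which encodes the glucocorticoid-induced leucine zipper protein, had 85.7, 61.9 and 95.8 RPKM in I1h/R6h, against 89.3, 128 and 112 RPKM in sham, with an overlap (−0.49 ± 0.17 SE, edgeR adjusted p = 0.242). Dusp1, which many stress signals also induce, went the other way, with 17.3, 23.3 and 38.4 RPKM in I1h/R6h, against 10.7, 16.5 and 10.1 RPKM in sham (1.02 ± 0.35 SE, edgeR adjusted p = 0.272). Sgk1, a kinase gene, stood at −0.30 ± 0.11 (edgeR adjusted p = 0.255). The mean deviation of the list from the sham mean was 0.01, −0.36 and −0.18 in I1h/R6h and 0.00, 0.24 and −0.24 in sham on the log2 scale, so that it was highest in sham replicate 2 and lowest in I1h/R6h replicate 2, the lowest library in Mt1 and Mt2.

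Among 10 STAT3 and acute phase genes, 9 had a positive log2 fold change, edgeR called 0 and 1 was higher at an unadjusted p under 0.05, against 6.39% of gene-symbol rows. The median log2 fold change was 0.25, and −0.01 without I1h/R6h replicate 1. The gene with the low p was Lif, a cytokine of the interleukin-6 family, with 0.607, 0.692 and 0.578 RPKM in I1h/R6h, against 0.115, 0.391 and 0.127 RPKM in sham (log2 fold change 1.51 ± 0.42 SE, edgeR adjusted p = 0.185, DESeq2 adjusted p = 0.0189). Within these libraries the list stood high in I1h/R6h replicate 1 (0.82) and in sham replicate 2 (0.66), against 0.12 and 0.20 in the other I1h/R6h libraries and −0.28 and −0.37 in the other sham libraries. I1h/R6h replicate 1 and sham replicate 2 were also the libraries with the most Mt1 and Mt2, but I1h/R6h replicate 2, the lowest in both, was not the lowest here. Over the 6 libraries, which share their depth across lists, the mean deviation had r = 0.66 with Mt1 and 0.56 with Mt2 for this list. It was 0.91 and 0.90 for the Nrf2 genes, 0.90 and 0.84 for the glucocorticoid-induced genes, and 0.85 and 0.86 for the copper genes. It was lower for the lists of zinc handling, at 0.21 and 0.30 for the reported Mtf1 targets, which include the repressed Slc39a10. For the Slc30 family it was 0.22 and 0.37, and for the Slc39 family 0.33 and 0.36. The part of these lists in the levels of Mt1 and Mt2 was not tested. Socs3, the feedback inhibitor of the STAT3 pathway, had 12.8, 7.76 and 10.0 RPKM in I1h/R6h, against 3.75, 14.7 and 3.6 RPKM in sham, so its highest value was sham replicate 2. Without that library edgeR called Socs3 higher (log2 fold change 1.42, adjusted p = 0.0354) and Lif higher (2.32, 0.0289). That setting called 33 rows of the table higher and 1 lower. With other single libraries left out, the edgeR adjusted p reached 0.979 for Socs3 and 0.506 for Lif. Il6, Stat3 and Cebpb had log2 fold changes of 1.58 ± 0.94, 0.20 ± 0.21 and 0.45 ± 0.52 (SE) and overlapping groups (edgeR adjusted p = 0.446, 0.678 and 0.723). Single libraries moved these values: Il6 stood at 0.99 without sham replicate 1 and 3.81 without sham replicate 2, Cebpb at 0.05 without I1h/R6h replicate 1 and 1.07 without sham replicate 2, and Stat3 at −0.02 without I1h/R6h replicate 1. Neutrophil and monocyte markers (8 genes, none at 0 in all libraries) summed to 13.9, 24.5 and 23.9 RPKM in I1h/R6h, against 10.5, 10.7 and 6.04 RPKM in sham. Of 5 tested, 3 were higher at an unadjusted p under 0.05, against 6.39% of gene-symbol rows, and edgeR called 0 (median log2 fold change 1.03). The part of these markers in the acute phase genes was not tested.

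Of 7 antioxidant genes driven by Nrf2, edgeR called 0, and 1 was lower at an unadjusted p under 0.05, against 8.71% of gene-symbol rows. Their median log2 fold change was 0.18, but −0.06 without I1h/R6h replicate 1 and −0.02 without I1h/R6h replicate 3. The lower gene was Nqo1, a quinone reductase, at 2.35, 1.89 and 2.07 RPKM in I1h/R6h, against 3.54, 2.78 and 2.65 RPKM in sham (log2 fold change −0.57 ± 0.18 SE, edgeR adjusted p = 0.205). Hmox1, which degrades heme, had 16.8, 4.10 and 8.02 RPKM in I1h/R6h, against 3.51, 7.92 and 3.45 RPKM in sham (0.89 ± 0.66 SE, edgeR adjusted p = 0.567). I1h/R6h replicate 1 was again the highest library of this gene, I1h/R6h replicate 3 and sham replicate 2 followed at almost equal levels, and the groups overlapped. Its log2 fold change was 0.22 without I1h/R6h replicate 1 and 1.42 without sham replicate 2. Txnrd1 and Srxn1, which encode thiol reductases, stood at 0.21 ± 0.13 and 0.18 ± 0.21 (edgeR adjusted p = 0.452 and 0.713), and at 0.03 and −0.08 without I1h/R6h replicate 1.

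The genes whose levels followed each member most closely over the 6 libraries were taken from 9877 gene rows of at least 10 CPM, by Pearson's r of log2 CPM. For Mt1 they were Mier3 (r = 0.996), Osmr (0.993) and Smad2 (0.991). Osmr, the receptor subunit for oncostatin M and also a gene of the acute phase list, had 4.22, 1.15 and 1.91 RPKM in I1h/R6h, against 2.07, 3.46 and 1.66 RPKM in sham, a range between libraries even wider than that of Mt1. For Mt2 the closest were Pisd (0.994), Angptl4 (0.993) and Gna13 (0.993). Angptl4, a secreted inhibitor of lipoprotein lipase, had 16.1, 5.89 and 8.66 RPKM in I1h/R6h, against 9.39, 13.5 and 10.4 RPKM in sham. Mt3 was followed by Klhl5 (0.993), Ntsr2 (0.983), a neurotensin receptor gene of astrocytes, and Ostf1 (0.982). The closest to Mtf1 were Fkbp9 (0.991), 2810011L19Rik (0.987) and Tsc22d4 (0.986), and those to Slc30a1 were Mapkapk2 (0.999), Zfp334 (0.993) and Brpf1 (0.993). Over 6 points, 17 to 69 of the 9877 rows reached an r of at least 0.95 with a member, and none of these 15 genes passed the edgeR threshold.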

How the data were processed

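Per the labels' protocols, ribosomal RNA was removed from brain RNA and NEBNext Ultra libraries were sequenced from both ends. Per the submitters' processing notes the build was mm10; aligner, counter, annotation and strand setting: not given in the sources used here. Deposited by the authors were whole-number counts and RPKM values per row. The deposited RPKM equal counts per kilobase and per 1000000 column counts in 100% of values (relative tolerance 0.001), and the deposited row length was used as given. The authors' deposited table holds a log2 fold change of mean RPKM, p-values and q-values.

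The count test was edgeR 4.0.16 under R 4.3.3, with TMM factors, filterByExpr, robust quasi-likelihood F test, two-sided, Benjamini-Hochberg over 40170 rows, threshold 0.05. It was tested on simulated data, in which the spread of a row was set by its level. The wider spread of Mt1 and Mt2 was thus not covered. The SE is the log2 fold change over the square root of F, and the 95% interval uses the fit's degrees of freedom. Ratios within a library were compared with an exact permutation test. Likeness used log2(TMM-scaled CPM + 0.5). Other settings tried were DESeq2 1.42.0, limma-voom (limma 3.58.1), RLE or upper-quartile factors, dropping the filter or requiring a mean of 1 CPM, edgeR without robust estimation, gene rows only, the replicate number as a block and leaving out each library. Replicate counts differed beyond sampling noise, and every library counts as 1 sample. The biological coefficient of variation was 20.5% in I1h/R6h and 13.4% in sham. The members and lists were chosen with earlier results of these data known. Named from each list were the 4 genes with the smallest p, and Socs3, Fkbp5, Slc30a8, Slc39a14, 1110065P20Rik and 1700034H15Rik were added after their values were seen. Promoter windows and motif shares come from RefSeq (GRCm38.p6), where all 5 genes matched.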

Additional observations from a re-analysis of the deposited data

How the results depend on the processing

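The 5 genes stayed uncalled under all 15 alternatives. Under the 9 that keep all 6 libraries, each gene kept its sign, with log2 fold changes of −0.16 to −0.07 for Mt1, −0.30 to −0.16 for Mt2, −0.08 to −0.02 for Mt3, −0.11 to −0.05 for Mtf1 and 0.12 to 0.18 for Slc30a1. Leaving out single libraries gave −0.46 to 0.11 for Mt1, −0.69 to 0.09 for Mt2, −0.14 to −0.03 for Mt3, −0.14 to −0.04 for Mtf1 and −0.06 to 0.25 for Slc30a1; the sign turned without I1h/R6h replicate 2 or sham replicate 2 for Mt1 (0.11 and 0.08) and Mt2 (0.09 and 0.02), and without I1h/R6h replicate 1 for Slc30a1 (−0.06). The cause was not tested. Over the whole table, where 1 row was called higher and 0 lower, rows called higher were 2 with upper-quartile factors, 51 with no filter, 0 with a mean of at least 1 CPM, 350 with DESeq2, 4 with limma-voom, 4 without robust estimation, 0 over gene rows only and 0 with the replicate block, and 0 to 650 without single libraries (650 without I1h/R6h replicate 1, 32 without I1h/R6h replicate 2, 33 without sham replicate 2). Rows called lower were 26 with no filter and 226 with DESeq2, and 0 to 407 without single libraries (407 without I1h/R6h replicate 1). Of 66 tested genes of the lists beside the members, 0 were called in the main analysis, 1 with no filter (Slc39a12), 3 with DESeq2 (Slc39a12, Sult1a1 and Lif) and 0 to 4 without single libraries (4 without I1h/R6h replicate 1). Without single libraries the difference in log2 ratio ran from −0.25 to −0.04 for Mt2 over Mt1 and from −0.51 to 0.14 for Mt1 plus Mt2 over Mt3. The median of the Mtf1 target list ran from −0.03 to 0.03 over the settings that keep all libraries and from −0.10 to 0.07 without single libraries. The replicate block left all 5 genes uncalled (Mt2 −0.30). Deviations from the group mean had r = −0.09, 0.03 and 0.16 between same-numbered libraries, against −0.16 to 0.15 between libraries of unlike number. With 3 libraries a group such values neither show a pairing by number nor exclude it. Counting error is about as large as the spread of Mtf1 in sham, while Mt4 and Slc30a8 lie at or near the floor.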
